A study of Mus musculus with 108 samples.

Results

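Ribosome biogenesis factors are the proteins that make, modify, cut and assemble ribosomal RNA before it becomes part of a ribosome. Here they are a list of 60 mouse genes in 6 roles: 3 of RNA polymerase I, 3 of the box C/D and 4 of the box H/ACA small nucleolar ribonucleoproteins (snoRNPs), 28 of the small subunit processome, 19 of large subunit assembly and 3 other nucleolar proteins. The processome role is used here as a label for small subunit factors, and it also holds late factors such as Nob1 and Tsr1. The members were found by symbol, and each matched 1 of the 55573 gene IDs in the files. All 60 passed the filter on low counts in the edgeR fits of polyA libraries, of RiboMinus libraries and of both together that gave the calls. RNA was sequenced from single mouse oocytes. They came from cKO females, in which Exosc10 is knocked out in oocytes, and from control females. Exosc10 encodes a ribonuclease of the nuclear RNA exosome. The labels give no strain, age, allele or Cre line for either genotype, so what the controls carry is not known here.

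PolyA libraries, which capture RNA with a poly(A) tail on oligo(dT) beads, were made at 3 stages. GV oocytes were at the germinal vesicle stage, with an intact nucleus. GV3h oocytes had been cultured for 3 hours, and MII eggs came from the oviduct. RiboMinus libraries, made with random hexamers and without poly(A) capture, were made at GV and MII. This gave 10 groups. In polyA libraries, GV had 15 oocytes of 2 cKO females and 7 of 2 control females. GV3h had 11 oocytes of 3 cKO females and 8 of 3 controls, and MII had 15 of 3 cKO females and 8 of 3 controls. In RiboMinus libraries, GV had 7 oocytes of 2 cKO females and 8 of 2 controls, and MII had 4 of 2 cKO females and 3 of a single control female.

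Ribosome production starts in the nucleolus, where RNA polymerase I transcribes a long precursor of the 18S, 5.8S and 28S rRNAs. Box C/D snoRNPs methylate the precursor, box H/ACA snoRNPs convert uridines to pseudouridine, and the small subunit processome folds and cuts the part that becomes the small subunit. A different set of GTPases, helicases and scaffold proteins assembles the large subunit. The nuclear RNA exosome trims the spacers of the same precursor. Growing oocytes store ribosomes and messenger RNA, transcription is largely silent in the full-grown GV oocyte, and stored messages gain or lose their poly(A) tails during maturation to MII. A polyA library therefore reads the tailed share of a message, and a RiboMinus library reads tailed and untailed RNA together.

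Library totals were 4638718 to 8735914 counts in polyA oocytes and 12319658 to 62675760 in RiboMinus oocytes. Exosc10 was at 8.17 CPM (counts relative to the scaled library total) or less in every cKO oocyte and at 42.8 CPM or more in every control oocyte. A list of 12 oocyte markers summed to between 8198 and 29162 CPM in each female. A list of 10 granulosa and cumulus cell markers summed to between 8.71 and 123 CPM. Its female means were higher in controls than in cKO in each of the 5 comparisons, with 49.3 against 29.2 CPM at polyA GV, 37.7 against 26.4 at GV3h and 105 against 78.3 at polyA MII. In RiboMinus libraries they were 34.9 against 20.5 CPM (GV) and 24.1 against 16 CPM (MII). Most of that signal was Cyp19a1, while Ptx3, Tnfaip6 and Foxl2 did not exceed 0.0867, 0.177 and 0.627 CPM in any female. The part of such cells in the results below was not tested. In RiboMinus GV, oocyte 3 of cKO female V1126 stood apart: its Exosc10 was 4.23 CPM, yet its Mdn1 (2.27 CPM) was inside the control range of 1.33 to 16.3 CPM, and its mean correlation with the other oocytes of its group was 0.893, against 0.920 to 0.948 for the others.

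The female was taken as the replicate, since oocytes of 1 female are not independent. Counts were summed per female, and each value below is a CPM of such a sum, scaled between females. Differences are log2 fold changes with their standard error and an adjusted p from edgeR. A member was called higher or lower when the adjusted p over all genes tested was under 0.05. The RiboMinus MII control is a single female, V1145, which the fit assumes to vary like the other groups. Every value is relative to the other genes of its library, so the amount of a message per oocyte was not measured.

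Levels can be compared between genes only per length, here as CPM per kilobase of exon. In control polyA GV oocytes the 60 members had a median of 13.9 CPM per kilobase, and 36 were at 10 or more. Imp3, a U3-binding protein of the processome, led at 117 CPM per kilobase. The processome GTPase Bms1 followed at 107, the UTP subunit Utp4 at 87.6 and the large subunit factor Brix1 at 76.9. At the other end, Fbl (fibrillarin, the methyltransferase of box C/D snoRNPs) was at 0.0918, Mdn1 at 0.132 and Nol11, a UTP subunit, at 0.471 CPM per kilobase. In RiboMinus GV controls the order was led by Bms1 at 161, Brix1 at 125 and Utp4 at 117 CPM per kilobase, while Imp3 was at 13.3. Fbl shares sequence with the copy Gm5812, so its low level is uncertain. Ddx18, Imp3, Npm1 and Pes1 also have near copies, which held between 256 and 726 counts in all libraries against 60814 to 293661 for these members.

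**Figure D1:**
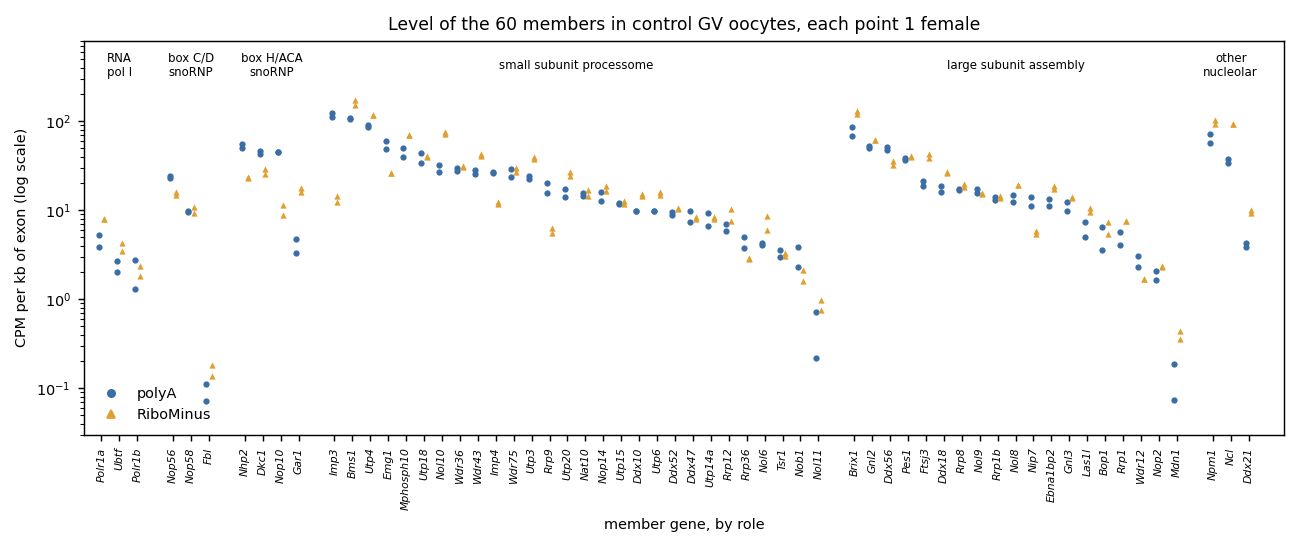
Level of each of the 60 members in control GV oocytes, as CPM per kilobase of exon on a log axis, grouped by role, with 1 point per female in polyA and RiboMinus libraries. Members spread from Fbl at 0.0918 to Imp3 at 117 CPM per kilobase in the polyA female means, and Imp3 is much lower in the RiboMinus libraries, at 13.3.

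The genotype contrasts ask which members differed between cKO and control oocytes of the same stage and library. At polyA GV, 5 members were higher and 2 lower in cKO, where 3.47% of all genes tested were called higher and 3.91% lower. At GV3h, 12 members were higher and 10 lower, against 12.5% and 12.7% of all genes. The polyA MII contrast had 17 higher and 2 lower, against 11.9% and 6.99%. In RiboMinus GV no member was called by edgeR, where 0.0275% of all genes were called higher and 0.00393% lower. There, 14 members had an unadjusted p under 0.05, as did 14.7% of all genes. DESeq2 called 6 members (Gnl2 and Rrp1 lower, Imp3, Mdn1, Tsr1 and Ubtf higher) and 6.16% of all genes. Voom also called 6 (Dkc1, Gnl2 and Utp14a lower, Imp3, Nip7 and Ubtf higher) and 8.32% of all genes. In RiboMinus MII, 5 members were higher and 4 lower, against 3.61% and 3.69%. Voom called more members there, among them Brix1, Dkc1, Mphosph10, Nop10, Nop56 and Utp4 as lower, and did not call Mdn1 or Nol11. Its full balance of higher and lower is not given here. The median log2 difference of the members was 0.10 at polyA GV (all genes 0.08), 0.06 at GV3h (0.07) and 0.24 at polyA MII (0.12). In RiboMinus MII it was -0.09 for the members and 0.25 for all genes. Of the 60, 36 were called in at least 1 of the 5 contrasts and 24 in none, where 41.4% of the 19030 genes tested in both library types were called at least once. A member given below as not called was not called by edgeR with TMM scaling. Other fits of the female sums called further members, and such calls are given for some of them, not for all. The 7 calls at polyA GV were the least steady: of these 7, none was kept without control female V889, 1 without control female V856, 3 without cKO female V857 and 5 without cKO female V888. Leaving out 1 of 2 females leaves a group with 1, which the fit assumes to vary like the other groups. A fit of only the groups compared made none either. Of the 22 calls at GV3h, 14 were kept without control V951 or cKO V993. Of the 19 at polyA MII, 11 were kept without control V853 or cKO V897, and 12 without control V896.

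The balance of higher and lower depended on the scaling between libraries. With library totals in place of TMM factors, 74.2% of all calls were higher at polyA GV (47.0% with TMM) and 70.5% at GV3h (49.5%). The share was 72.6% at polyA MII (63.1%) and 65.9% in RiboMinus MII (49.5%). The members then counted 8 higher and 1 lower at GV, 19 and 3 at GV3h, 21 and 1 at polyA MII, and 6 and 2 in RiboMinus MII. The share of all tested genes called with library totals is not given here. Under that scaling Gnl2, Dkc1 and Bms1 were the members lower at GV3h. With DESeq2 size factors instead, polyA MII had 14 members higher and 3 lower. The members called in the TMM fit kept their sign in these 4 contrasts.

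**Figure D2:**
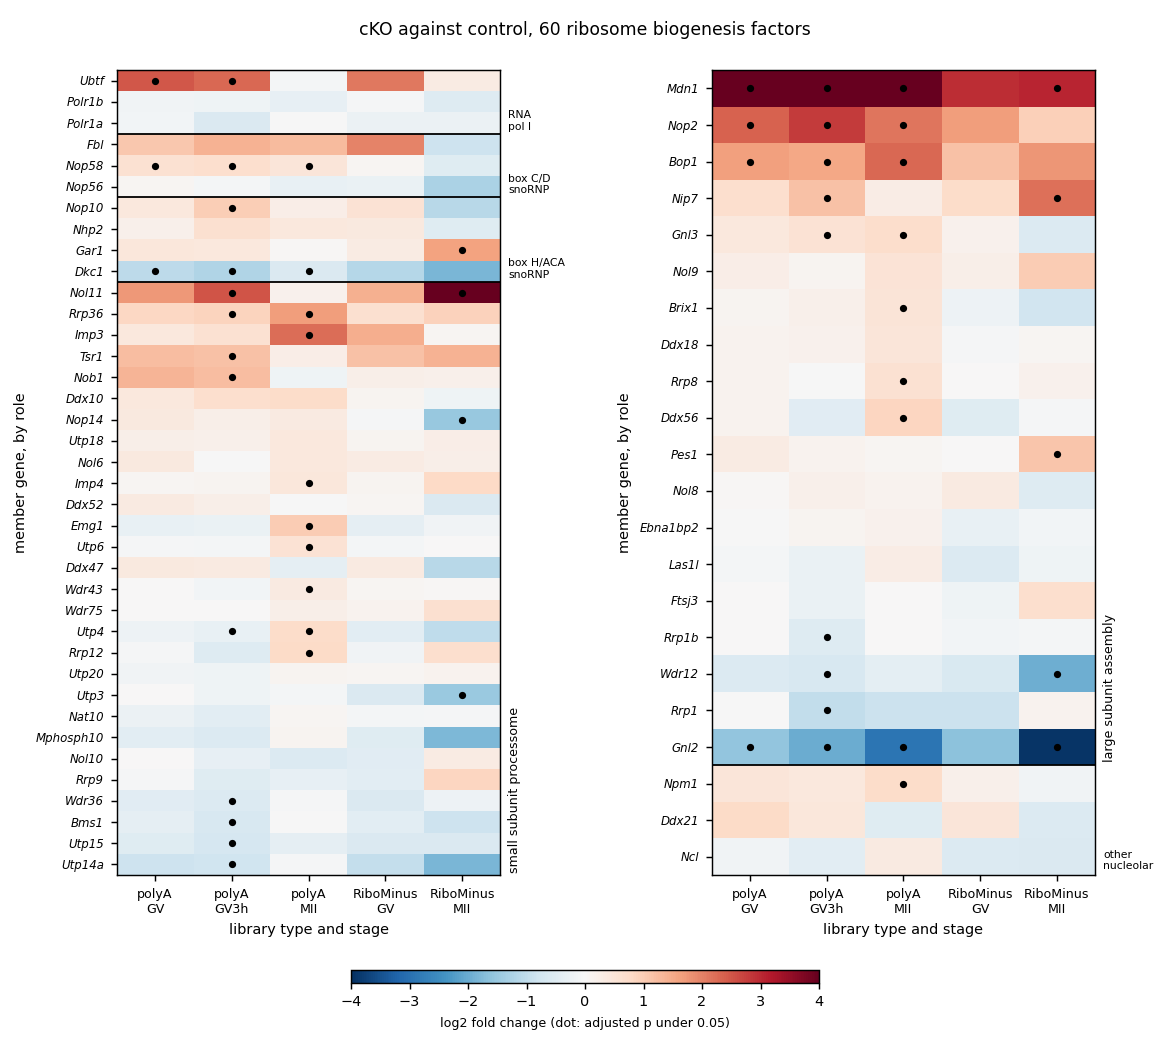
Log2 fold change of cKO over control for the 60 members (rows, grouped by role) in the 5 genotype contrasts (columns), with a dot where edgeR called the member. Colours stop at 4 in each direction, while the values reach 5.80 (Mdn1 at GV3h), and the Mdn1 and Gnl2 rows keep their direction in all 5 columns.

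Mdn1 and Gnl2, both factors of the large subunit, were the members called in the same direction in at least 4 of the 5 contrasts. The share of all genes called that often, or at every polyA stage, is not given here. Such repeats are therefore not shown to be particular to these members. Mdn1 encodes midasin, a very large AAA ATPase that pulls assembly factors off precursors of the large subunit. It lies on mouse chromosome 4 (GRCm38, 32657119 to 32775217, plus strand). In polyA GV oocytes Mdn1 was at 4.14 and 1.62 CPM in the control females and at 74.2 and 30.9 CPM in the cKO females. Its log2 fold change was 4.21 ± 0.71 (adjusted p 0.00472). At GV3h the controls were at 1.47, 0.717 and 0.912 CPM and the cKO females at 64.0, 33.6 and 72.8 CPM, a log2 fold change of 5.80 ± 0.65 (adjusted p 5.66e-05). At both stages every cKO female was far above every control. At MII the controls were at 0.0867, 0.0416 and 0.416 CPM and the cKO females at 9.67, 2.76 and 11.5 CPM. The fitted log2 fold change was 5.68 ± 0.79 (adjusted p 0.000242), but it rests on 7 control counts in all, 5 of them in 1 oocyte. RiboMinus libraries, which are deeper, gave 7.84 and 9.60 CPM in GV controls and 42.7 and 93.6 CPM in GV cKO females, with a log2 fold change of 2.97 ± 0.49 that missed the threshold (adjusted p 0.0803), though DESeq2 called it (adjusted p 2.13e-07). In RiboMinus MII the control female was at 3.53 CPM and the cKO females at 18.7 and 40.0 CPM, a log2 fold change of 3.05 ± 0.66 (adjusted p 0.034), which voom did not call.

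Mdn1 was also the member with the largest difference of the 60 in each polyA contrast, and its promoter is shown for that reason. The 250 bases before its start (RefSeq, GRCm38.p6, chr4:32656869-32657118, plus strand) are
Mdn1 upstream: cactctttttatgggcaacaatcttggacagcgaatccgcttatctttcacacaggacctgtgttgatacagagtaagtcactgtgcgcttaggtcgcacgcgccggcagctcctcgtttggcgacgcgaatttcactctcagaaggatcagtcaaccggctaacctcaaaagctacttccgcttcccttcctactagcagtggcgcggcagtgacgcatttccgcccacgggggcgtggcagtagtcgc
The E-box CACGTG, a palindrome that reads the same on both strands and is bound by Myc-family factors, was searched from 250 bases before to 50 after each start. In Mdn1 it begins at base 39 after the start, inside this window, with the motif in capitals:
Mdn1 E-box: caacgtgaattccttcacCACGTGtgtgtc
It was present in 10 of the 52 members with an entry (19.2%) and in 8.09% of the 27025 genes in the table. Whether a factor binds there was not measured.

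Gnl2 encodes a nucleolar GTPase of large subunit precursors and lies on chromosome 4 (GRCm38, 125016585 to 125055380, plus strand). In polyA GV controls Gnl2 was at 184 and 192 CPM, and in cKO females at 95.3 and 29.7 CPM. The log2 fold change was -1.59 ± 0.41 (adjusted p 0.0289), or -1.41 and not called with library totals. At GV3h it was at 213, 203 and 200.2 CPM in controls and 40.6, 63.0 and 51.4 CPM in cKO females, a log2 fold change of -1.99 ± 0.34 (adjusted p 0.000714). At MII the values were 144, 147 and 134 CPM against 28.7, 13.2 and 14.4 CPM, a log2 fold change of -2.93 ± 0.36 (adjusted p 9.19e-05). Control females kept close together at each stage, and cKO females were below all of them. In RiboMinus GV, Gnl2 was at 223 and 223 CPM in controls and 106 and 37.9 CPM in cKO females, and edgeR did not call it (adjusted p 0.168). It was called lower there by voom (-2.10, adjusted p 0.00873), by DESeq2 (-1.63, adjusted p 0.00736) and by edgeR with no filter. In RiboMinus MII it was at 271 CPM in the control female and 14.0 and 21.9 CPM in the cKO females, a log2 fold change of -3.92 ± 0.52 (adjusted p 0.0134). Gnl2 overlaps exons of Dnali1 on the opposite strand, and the strand setting of the counting is not given in the sources used here. Mdn1 was thus higher and Gnl2 lower in the cKO females than in the controls of each library type and stage. In RiboMinus GV neither was called by edgeR with TMM and the low count filter.

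**Figure D3:**
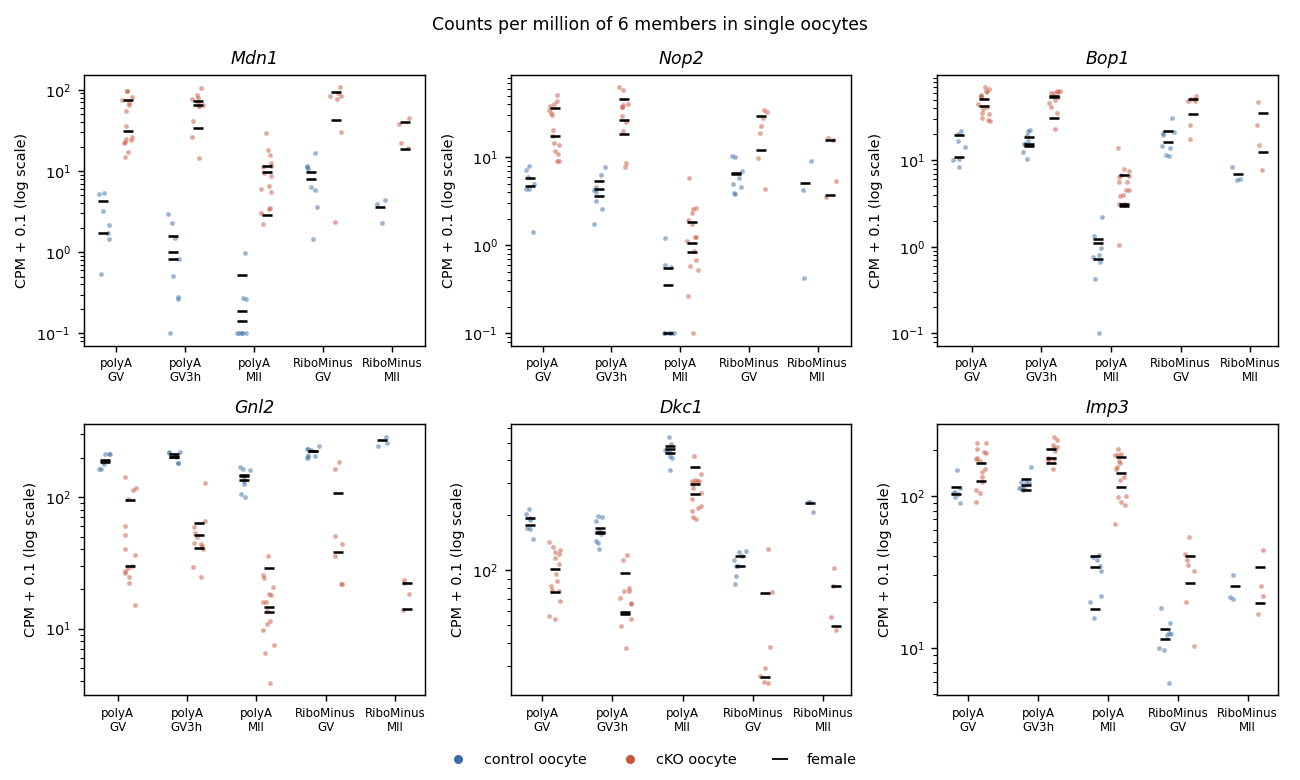
CPM plus 0.1 (log axis) of Mdn1, Nop2, Bop1, Gnl2, Dkc1 and Imp3 in single oocytes (points) and females (black bars), by library type and stage, with controls in blue and cKO in red. For Gnl2 every polyA cKO oocyte lies below every polyA control oocyte of its stage, with 142 CPM the highest cKO and 164 CPM the lowest control value at GV, and for Mdn1 every polyA cKO oocyte lies above its controls.

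Oocyte values, scaled separately from the female sums, show how wide the spread within cKO was. In polyA GV the cKO oocytes had Gnl2 between 15.1 and 142 CPM, with a median of 36.2, and the 7 controls between 164 and 212 CPM. Their Mdn1 ranged from 14.5 to 97.0 CPM, with a median of 35.4, against 0.433 to 5.19 CPM in controls. In RiboMinus GV the cKO range of Gnl2, 21.6 to 186 CPM, ended just below the controls, which began at 199 CPM. The highest value came from oocyte 3 of female V1126. That oocyte had been set apart partly by its own Mdn1 level, so leaving it out gives no independent support. Without it, an alternative added after the data were seen, 5 members were called in RiboMinus GV instead of none. Higher were Mdn1 (3.13 ± 0.42, adjusted p 0.026), Ubtf (2.23 ± 0.37, adjusted p 0.0327), Imp3 (1.58 ± 0.32, adjusted p 0.0456) and the GTPase-like protein Tsr1 (1.31 ± 0.26, adjusted p 0.0428). Gnl2 was lower (-2.0 ± 0.34, adjusted p 0.0336). Over all genes the number called went from 8 to 662, or 2.6% of those tested. Without the whole of female V1126 the cKO group is female V1131 alone, with its spread taken from the other groups. That fit called 4 members, namely Mdn1 and Ubtf higher and Gnl2 and Dkc1 lower, and 4.71% of all genes.

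Of the RNA polymerase I genes, Ubtf was called higher in cKO at polyA GV and GV3h. Ubtf encodes UBF, which opens ribosomal DNA for transcription, and Polr1a and Polr1b encode the 2 largest polymerase subunits. At polyA GV Ubtf was at 17.7 and 13.4 CPM in controls and 136 and 39.8 CPM in cKO females, a log2 fold change of 2.50 ± 0.63 (adjusted p 0.0271), which voom did not call (1.85). The GV3h values were 18.2, 16.05 and 19.4 CPM against 89.6, 49.7 and 123 CPM (2.29 ± 0.51, adjusted p 0.00443). At MII the genotypes overlapped, with 2.60, 17.1 and 10.3 CPM in controls and 9.11, 9.85 and 9.82 CPM in cKO females (-0.09 ± 0.51, adjusted p 0.933). The difference between these stages had an interaction of -2.58 ± 0.80 that missed the threshold (adjusted p 0.113). RiboMinus libraries showed 28.1 and 22.9 CPM in GV controls, 56.1 and 166 CPM in GV cKO females, and 13.6 against 15.96 and 18.05 CPM at MII. Neither was called by edgeR with TMM, but Ubtf was called higher at RiboMinus GV by voom (1.95, adjusted p 0.0424), by DESeq2 (2.15, adjusted p 0.000388) and by edgeR with no filter. Polr1a and Polr1b were not called in the 5 genotype contrasts. For Polr1a at GV3h the controls were at 59.1, 56.7 and 48.1 CPM and the cKO females at 37.9, 37.1 and 33.7 CPM, and a fit of only the groups compared called it lower (-0.57, adjusted p 0.0112).

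The modification snoRNPs were split between their subunits. Among box C/D proteins, the core scaffold Nop58 was higher in cKO at every polyA stage, by 0.61 ± 0.17 at GV (adjusted p 0.0423), 0.67 ± 0.14 at GV3h (adjusted p 0.00303) and 0.48 ± 0.14 at MII (adjusted p 0.0264). The MII call of Nop58 was lost with DESeq2 size factors and in a fit of only the groups compared. At GV3h its control females were at 108, 113 and 104 CPM and its cKO females at 164, 171 and 183 CPM, which do not overlap. Its partner Nop56, at 94.6 and 98.1 CPM in polyA GV controls and 109 and 92.7 CPM in cKO females, was not called in the genotype contrasts, and neither was Fbl. For Nop56 in RiboMinus MII, voom (-1.26, adjusted p 0.00575), DESeq2 (adjusted p 0.0184) and the edgeR fit with no filter called it lower. Nop58 and Nop56 host snoRNA genes in their exon span on the same strand, so reads of host and snoRNA cannot always be told apart.

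In the box H/ACA group the pseudouridine synthase Dkc1 (dyskerin, chromosome X, GRCm38, 75095854 to 75109777) was lower in cKO at every polyA stage. It was at 193 and 177 CPM in GV controls and 75.5 and 102 CPM in cKO females, a log2 fold change of -1.06 ± 0.23 (adjusted p 0.0138). At GV3h it was at 159, 161 and 169.5 CPM against 58.6, 96.6 and 57.6 CPM, a log2 fold change of -1.20 ± 0.19 (adjusted p 0.000405). The MII difference was smaller, with 460.0, 478 and 440.1 CPM in controls and 367, 297 and 261 CPM in cKO females (-0.58 ± 0.18, adjusted p 0.0399). The MII call was lost with library totals and when any 1 of 5 females was left out, with adjusted p-values of 0.0647 to 0.14. In RiboMinus libraries Dkc1 was at 119 and 105 CPM against 74.7 and 26.1 CPM at GV (adjusted p 0.294) and at 235 against 82.3 and 49.6 CPM at MII (adjusted p 0.0667), and edgeR with TMM called it at neither stage. In RiboMinus MII it was called lower by voom, by DESeq2, with no filter and in a fit of only the groups compared (adjusted p 1.9e-06 to 0.012), and at RiboMinus GV by voom (-1.43, adjusted p 0.0126) and with no filter. The other proteins of the same particle were not called lower, except Nop10 in RiboMinus MII by voom (-1.37, adjusted p 0.0336). Nop10 was higher in cKO at GV3h, with controls at 44.5, 49.8 and 52.9 CPM and cKO females at 87.4, 92.9 and 110.2 CPM (0.98 ± 0.29, adjusted p 0.0235). Gar1 was higher in RiboMinus MII, at 16.2 CPM in the control and 43.0 and 55.8 CPM in cKO females (1.61 ± 0.35, adjusted p 0.0351). Nhp2 was not called, though at GV3h it was higher with library totals (0.86, adjusted p 0.0362), with voom, with no filter and in a fit of only the groups compared. Dkc1 overlaps Mpp1 on the opposite strand.

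Of the 28 processome genes edgeR with TMM called none at polyA GV, 4 higher and 5 lower at GV3h, and 8 higher and none lower at MII. At polyA GV voom called Nob1, Nol11, Rrp36 and Tsr1 higher and Utp14a and Wdr36 lower. DESeq2 called the same genes except Utp14a, and with library totals Nob1 and Rrp36 were higher. Over all genes, 3.47% were higher and 3.91% lower at GV, 12.5% and 12.7% after culture, and 11.9% and 6.99% at MII, so the GV3h counts lay near the background. The 5 that were lower at GV3h were Utp14a, Utp15, Bms1, Wdr36 and Utp4. The GTPase Bms1 was at 532, 631 and 529.8 CPM in controls and 354, 407 and 314 CPM in cKO females (-0.65 ± 0.12, adjusted p 0.00102). Utp14a, which activates a helicase that releases U3 RNA, was at 30.2, 32.2 and 36.0 CPM against 13.7, 26.2 and 16.7 CPM (-0.80 ± 0.25, adjusted p 0.026). The 4 that were higher were Nol11, Nob1, Tsr1 and Rrp36. For Nol11 the controls were at 2.93, 1.26 and 1.30 CPM and the cKO females at 9.61, 8.47 and 13.3 CPM (2.53 ± 0.53, adjusted p 0.00303). Nob1, the endonuclease that makes the 3′ end of 18S rRNA, rose by 1.25 ± 0.35 (adjusted p 0.0175), from 11.8, 5.92 and 12.6 CPM to 21.2, 23.6 and 27.5 CPM. In these 4 examples, taken from the called members, the control and cKO females did not overlap. The share of all genes without overlap is not given here. Utp4 lost its GV3h call with DESeq2 size factors and with library totals. With library totals Bms1 was the processome gene still called lower, and 7 were called higher. The Utp14a call was lost when any 1 of 5 females was left out (adjusted p 0.0502 to 0.119).

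At MII the processome members that were higher in cKO were Imp3, Rrp36, Emg1, Rrp12, Utp4, Utp6, Imp4 and Wdr43. Imp3, on chromosome 9 (GRCm38, 56937475 to 56938398), had the largest difference. Its MII controls were at 40.1, 34.2 and 18 CPM and its cKO females at 113, 179.9 and 142 CPM, a log2 fold change of 2.23 ± 0.24 (adjusted p 3.6e-05). Rrp36 was at 8.58, 7.61 and 9.23 CPM in controls and 28.6, 30.01 and 22.8 CPM in cKO females (1.68 ± 0.22, adjusted p 0.000184). Emg1, a methyltransferase of 18S rRNA, was at 15.4, 15.0 and 12.2 CPM against 25.7, 29.6 and 31.5 CPM (1.03 ± 0.20, adjusted p 0.00229). Imp3 and Imp4 are partners in the U3-binding complex, and Imp4 differed by less, 0.46 ± 0.14 (adjusted p 0.0296). Mphosph10, the third partner, was not called by edgeR with TMM, but voom, the edgeR fit with no filter and a fit of only the groups compared called it lower at GV3h (-0.54 to -0.51, adjusted p 0.00705 to 0.0275). In RiboMinus MII those fits and DESeq2 also called it lower (-1.86 to -1.71). Calls of Imp4, Rrp12, Utp6 and Wdr43 at MII were lost in a fit of only the groups compared, and that of Wdr43 also with DESeq2 size factors. Utp4 was called in both directions by edgeR with TMM: it was lower in cKO at GV3h (-0.31 ± 0.10, adjusted p 0.0417) and higher at MII (0.74 ± 0.11, adjusted p 0.000291). Voom did not call the GV3h difference and called Utp4 lower in RiboMinus MII (-1.48, adjusted p 0.021). In RiboMinus MII, Nol11 was at 0.349 CPM in the control and 3.85 and 11.6 CPM in cKO females (4.45 ± 0.95, adjusted p 0.0329), which voom did not call. Nop14 was lower there (76.1 against 18.6 and 35.2 CPM, -1.50 ± 0.37, adjusted p 0.0472), and so was Utp3 (103 against 39.0 and 33.9 CPM, -1.49 ± 0.27, adjusted p 0.0236). The Nop14 call was lost without cKO female V1166 (-1.10, adjusted p 0.0607), with DESeq2 size factors, with library totals and in a fit of only the groups compared (adjusted p 0.0523 to 0.0935).

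Among the 19 large subunit factors, 3 were higher and 1 lower at polyA GV. At GV3h 5 were higher and 4 lower, and at MII 7 were higher and 1 lower. The shares of all genes were those given above for the processome. Besides Mdn1, Nop2 and Bop1 were higher at all 3 stages. Nop2, a methyltransferase of 28S rRNA, was at 5.71 and 4.55 CPM in GV controls and 35.8 and 17.4 CPM in cKO females (2.37 ± 0.58, adjusted p 0.0243). At GV3h it was at 5.31, 4.30 and 3.55 CPM against 26.4, 18.3 and 45.6 CPM (2.78 ± 0.49, adjusted p 0.000882). At MII its level was near 0 in both genotypes, with 14 control counts over 8 oocytes, and the fitted difference was 2.14 ± 0.63 (adjusted p 0.0263), which was lost without controls V836 or V896 or cKO female V897 (adjusted p 0.0602 to 0.139) and with voom. Bop1, Pes1 and Wdr12 form the PeBoW complex and did not move together. Bop1 was at 19.3 and 10.7 CPM against 50.5 and 42.3 CPM at GV (1.63 ± 0.42, adjusted p 0.0281). At GV3h it was at 14.7, 15.3 and 18.3 CPM against 54.3, 30.9 and 54.8 CPM (1.53 ± 0.34, adjusted p 0.00406), and its level was lower at MII, with 1.13, 0.624 and 0.998 CPM against 2.88, 2.99 and 6.73 CPM (2.30 ± 0.41, adjusted p 0.00146). Wdr12 was lower in cKO at GV3h (28.2, 26.7 and 32.1 CPM against 17.4, 18.2 and 19.7 CPM, -0.65 ± 0.22, adjusted p 0.0408) and in RiboMinus MII (35.9 against 7.53 and 11.2 CPM, -1.94 ± 0.45, adjusted p 0.0388). The GV3h call of Wdr12 was lost under both other scalings. Its RiboMinus call was lost with library totals (-1.72, adjusted p 0.06) and without cKO female V1166 (-1.66, adjusted p 0.0777). Pes1 was called in 1 of the 5 genotype contrasts, RiboMinus MII, where it was higher (112 against 232 and 245 CPM, 1.10 ± 0.26, adjusted p 0.04). A fit of only the groups compared did not call it (1.18, adjusted p 0.118).

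Other large subunit factors differed at 1 or 2 stages. Nip7 was at 27.9, 26.9 and 41.3 CPM in GV3h controls and 64.1, 67.0 and 85.2 CPM in cKO females (1.16 ± 0.25, adjusted p 0.00326). In RiboMinus MII it was at 5.89 CPM in the control female and 28.4 and 25.7 CPM in cKO females (2.20 ± 0.38, adjusted p 0.0202). Gnl3 (nucleostemin), a relative of Gnl2, went the other way from it, with a difference of 0.56 ± 0.15 at GV3h (adjusted p 0.0108) and 0.69 ± 0.15 at MII (adjusted p 0.00481). Its MII females were at 42.1, 52.9 and 46.7 CPM in controls and 74.3, 83.7 and 71.1 CPM in cKO. Rrp1 was lower at GV3h, at 26.6, 23.8 and 19.5 CPM against 10.4, 13.7 and 11 CPM (-0.99 ± 0.32, adjusted p 0.0344), a call lost when any 1 of 4 females was left out (adjusted p 0.0855 to 0.115) and with library totals. Brix1, Ddx56 and Rrp8 were higher at MII, by 0.51 ± 0.16, 0.87 ± 0.27 and 0.62 ± 0.15. The Brix1 call was lost with DESeq2 size factors (0.48, adjusted p 0.0577), and those of Ddx56 (0.82, adjusted p 0.15) and Rrp8 (0.61, adjusted p 0.0617) in a fit of only the groups compared. In RiboMinus MII voom called Brix1 lower (-0.69, adjusted p 0.00573). Of the abundant nucleolar proteins, Npm1 (nucleophosmin) was higher at MII, with 323, 385 and 378 CPM in controls and 558, 597 and 661 CPM in cKO females (0.74 ± 0.16, adjusted p 0.00453). At GV3h edgeR with TMM did not call it, while library totals (0.64, adjusted p 0.00737), voom, DESeq2 and a fit of only the groups compared called it higher. Ncl (nucleolin), at 344 and 383 CPM in polyA GV controls, was not called in the genotype contrasts by edgeR with TMM. At GV3h voom and a fit of only the groups compared called it lower, and at MII voom and library totals called it higher.

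Summed over the 60 members, the list took 5597 ± 189 CPM (SD, n = 2 females) in polyA GV controls and 5620.1 ± 671 CPM (n = 2) in cKO. At GV3h the sums were 5869 ± 67.3 CPM and 5540.1 ± 135 CPM (n = 3 each), and at MII 6076 ± 374 CPM and 7015 ± 225 CPM (n = 3 each). In RiboMinus libraries they were 7077 and 6244 CPM at GV, and 8015 and 6190.3 CPM at MII. At MII the sum was higher in cKO in polyA libraries and lower in RiboMinus libraries. These sums were not tested.

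The stage contrasts ask how the members changed during maturation. From GV to MII in polyA libraries, 34 members changed in controls and 33 in cKO. In controls 13 members rose and 21 fell, against 16.8% and 25.7% of all genes. In cKO oocytes 12 rose and 21 fell, against 18.1% and 26.6%. The median log2 change of the members was -0.21 in controls and -0.09 in cKO, and that of all genes -0.26 and -0.33. In both genotypes 15 members fell and 10 rose, against 18% and 13.2% of all genes, and none was called in opposite directions. With library totals as scaling, 8 rose and 32 fell in controls and 7 and 32 in cKO, and the share of all calls that were higher went from 39.5% to 21.4% and from 40.5% to 20.04%. From GV to GV3h no member was called in controls or cKO by edgeR, as for 0% of all genes. In each genotype 1 member, and 425 and 373 of all genes, had an unadjusted p under 0.05. With oocytes as replicates 1 member was called in cKO.

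The steepest falls were in genes of several roles. Nhp2, the H/ACA core protein, went from 57.7 and 63.8 CPM at GV to 2.34, 1.25 and 3.16 CPM at MII in controls, a log2 change of -4.81 ± 0.37 (adjusted p 5.52e-08), and by -4.60 ± 0.36 in cKO (adjusted p 1.04e-07). Nop2 fell by 4.21 ± 0.64 in controls and by 4.44 ± 0.55 in cKO. Emg1 went from 227 and 278 CPM to 15.4, 15.0 and 12.2 CPM in controls (-4.15 ± 0.22, adjusted p 1.48e-09) and fell less in cKO (-2.84 ± 0.21). Bop1 fell by 4.08 ± 0.43 and 3.41 ± 0.38 in the 2 genotypes, and the U3 protein Rrp9 by 3.27 ± 0.30 and 3.56 ± 0.30. Mdn1 fell by 4.17 ± 0.85 and 2.7 ± 0.56. Gnl2 fell in cKO, by 1.75 ± 0.37 (adjusted p 0.0011), while its control change of -0.41 was not called (adjusted p 0.385), except in a fit of only the groups compared (-0.40, adjusted p 0.0459). The difference between its changes in the genotypes was not called by edgeR with TMM.

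Among the members that rose were a modification enzyme and several assembly factors. Dkc1 went from 193 and 177 CPM to 460.0, 478 and 440.1 CPM in controls (1.31 ± 0.22, adjusted p 0.000122) and from 75.5 and 102 CPM to 367, 297 and 261 CPM in cKO (1.80 ± 0.22, adjusted p 7.43e-06). Brix1 went from 185 and 235 CPM to 605, 494 and 488 CPM in controls (1.33 ± 0.19), and rose by 1.74 ± 0.19 in cKO (adjusted p 2.33e-06). Nip7 rose by 2.13 ± 0.30 and 1.75 ± 0.29, and Nop58 by 1.27 ± 0.16 and 1.14 ± 0.16. Mphosph10 rose by 1.19 ± 0.23 in controls and 1.73 ± 0.24 in cKO. Within 1 particle the directions could be opposite: of the box H/ACA proteins Dkc1 rose while Nhp2 fell, and of the U3-binding complex Mphosph10 rose while Imp4 fell by 1.76 ± 0.15 and 1.4 ± 0.15. Dkc1 was thus lower in cKO at each polyA stage and still rose from GV to MII in both genotypes.

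The stage change differed between genotypes for 3 members in the polyA fit, where 1.94% of all genes were called. All 3 belong to the processome and were less reduced, or not reduced, at MII in cKO. Imp3 fell by 1.81 ± 0.26 in controls (adjusted p 3.19e-05) and changed by 0.00 ± 0.26 in cKO (adjusted p 0.998), an interaction of 1.81 ± 0.37 (adjusted p 0.0213). Emg1 had an interaction of 1.31 ± 0.30 (adjusted p 0.0361). Utp4 fell by 1.4 ± 0.12 in controls and by 0.46 ± 0.12 in cKO, an interaction of 0.94 ± 0.17 (adjusted p 0.0101). With DESeq2 size factors 2 of these 3 calls were kept, as without cKO female V842 or V897 or control female V853 or V896. None of the 3 was left without control female V889 or in a fit of only the groups compared, 1 was left without cKO female V857, and 6 members, with 6.03% of all genes, were called without cKO female V888. No member had a different change from GV to GV3h (0% of all genes, and 1 member and 307 genes at an unadjusted p under 0.05).

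In RiboMinus libraries, which do not depend on the tail, the stage fit called few genes of any kind, with 1 control female at MII. No member was called in controls, where 0.00787% of all genes rose and 0% fell, with 15 members and 3834 genes (15.1%) at an unadjusted p under 0.05. This count depended on the test: 26 members were called in a fit of only the groups compared, 8 with voom and 5 with DESeq2, against 27.9%, 7% and 6.37% of all genes in the same fits. In cKO 1 member rose and 2 fell, against 0.61% and 1.71% of all genes. Pes1 rose from 124 and 119 CPM to 232 and 245 CPM (0.98 ± 0.20, adjusted p 0.0462). Ubtf fell from 56.1 and 166 CPM to 15.96 and 18.05 CPM (-2.71 ± 0.47, adjusted p 0.0345). The helicase Ddx47 fell from 73.6 and 65.3 CPM to 13.7 and 27.6 CPM (-1.75 ± 0.34, adjusted p 0.0418). The interaction of stage and genotype was called for no member and 0% of all genes, with 12 members and 3611 genes at an unadjusted p under 0.05. Without oocyte 3 of female V1126 the cKO count went from 3 to 6 members (Ddx18, Gnl3 and Pes1 higher, Ddx47, Gnl2 and Ubtf lower), and 5.07% of all genes were called. Without cKO female V1167 it was 12 members and 7.61% of all genes, and without cKO female V1126 Ubtf alone and 3.29%. Each of these 2 fits has a cKO group of 1 female. None of the 3 was kept without cKO female V1131 or V1166, or in a fit of only the groups compared. With library totals Ubtf alone was called.

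The polyA and RiboMinus changes from GV to MII were then compared in 1 fit of all 10 groups. In controls the polyA change was above the RiboMinus change for 8 members and below it for 12, against 10.9% and 11.9% of all genes. In cKO it was above for 11 and below for 13, against 11.6% and 9.17%. In both genotypes it was below for 9 members (Bop1, Ddx56, Emg1, Gnl3, Imp4, Nhp2, Nop2, Rrp8 and Rrp9) and above for 5 (Brix1, Nip7, Nol8, Nop58 and Wdr36), where 6.02% of all genes were below in both and 6.72% above. With library totals as scaling Nop58 and Wdr36 were called in neither genotype, and Brix1 and Nol8 not in controls. Of these 9, 8 also fell in the polyA libraries in both genotypes, and of the 5, 4 rose. The polyA change is part of the difference that picked them, so this overlap is partly built in and adds no support. These libraries came from different females and were made with different kits, so the kit and the tail cannot be told apart.

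Nhp2 had the largest such difference. While its polyA level fell to 1.25 to 3.16 CPM, its RiboMinus level was at 26.1 and 27.1 CPM in GV controls and 83.8 CPM in the MII control. The polyA change was below the RiboMinus change by 6.30 ± 0.55 on the log2 scale in controls (adjusted p 5.72e-08), and by 5.20 ± 0.50 in cKO (adjusted p 7.13e-07). Emg1, at 122 and 123 CPM in RiboMinus GV controls and 104 CPM in the MII control, differed by -3.75 ± 0.44 in controls and -2.63 ± 0.40 in cKO. For Rrp9 the difference was -2.74 ± 0.50 and -4.29 ± 0.47. Gnl3 was at 83.4 and 86.8 CPM in RiboMinus GV controls and 265 CPM at MII, while its polyA control level fell by 0.51 ± 0.16, a difference of -1.99 ± 0.28. Gnl3 overlaps snoRNA genes on the same strand, whose part in this difference was not tested. In the other direction, Nip7 went to 5.89 CPM in the RiboMinus MII control from 16.7 and 18.2 CPM at GV, and differed by 3.86 ± 0.50 in controls and 2.02 ± 0.40 in cKO. Brix1 differed by 1.04 ± 0.32 and 2.01 ± 0.28. RNA counted for Nhp2 and Emg1 was thus still read in RiboMinus MII libraries, while polyA MII libraries read less of it than at GV. Nhp2, Emg1 and Rrp9 overlap the genes Rmnd5b, Lpcat3 and Parp3 on the opposite strand. Since the strand setting is not known, reads of these pairs cannot be told apart, and their part in the difference was not tested.

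**Figure D4:**
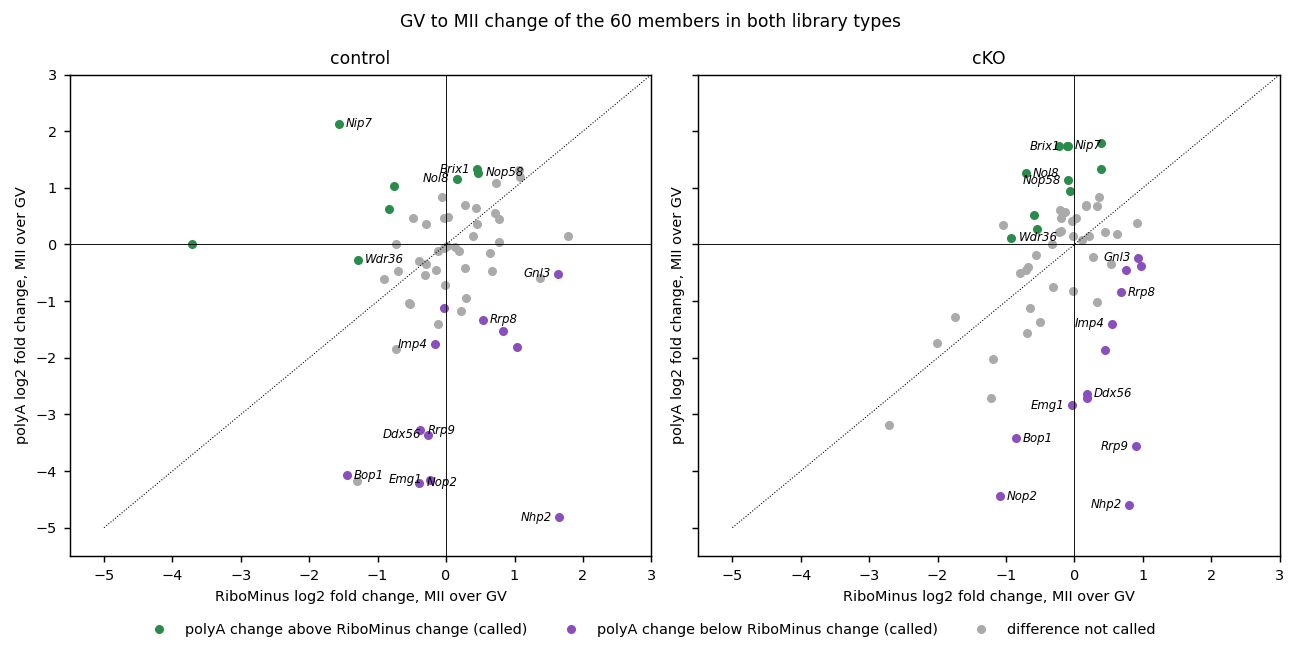
Log2 change from GV to MII of each of the 60 members in RiboMinus libraries (x axis) and polyA libraries (y axis), in controls and in cKO oocytes, with green points where the polyA change was called above the RiboMinus change and purple points where it was below. Nhp2 lies farthest below the diagonal, by 6.30 in controls and 5.20 in cKO, and Nip7 lies above it in both.

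Tail length in maturing oocytes is known to depend on short elements near the 3′ end. The cytoplasmic polyadenylation element, in the forms TTTTAT and TTTTAAT on the transcript strand alone, was searched in the last 100 bases of 1 GENCODE vM21 transcript per gene, and the poly(A) signals AATAAA and ATTAAA in the last 50 bases. TTTTAAT can overlap AATAAA, and TTTTAT can overlap ATTAAA. The element was in 4 of the 10 members that rose in polyA libraries in both genotypes (Dkc1, Mphosph10, Rrp1b and Utp18) and in 3 of the 15 that fell (Emg1, Mdn1 and Nat10). Over all 60 it was in 26.7%, against 18.5% of the 14514 protein-coding genes tested. Among all such genes it was in 32.8% of the 2278 that rose in both genotypes and 9.02% of the 2872 that fell. A poly(A) signal was found in 73.3% of members and 76.9% of those genes. The windows below, of members that rose and members that fell, show element and signal in capitals on the transcript strand (GRCm38).
Dkc1 (rose, chrX:75109742-75109771, plus): gaatatTTTTATTAAAagtctgaggtttat
Mphosph10 (rose, chr7:64376537-64376566, minus): ctgttgTTTTAATAAAgaccatcaccaaag
Utp18 (rose, chr11:93859243-93859272, minus): ttATTAAAactTTTTATtgtaaagaaattt
Brix1 (rose, chr15:10474791-10474820, minus): cagtacttgttaAATAAAactctggtcaag
Bop1 (fell, chr15:76452996-76453025, minus): gctttattgggcAATAAAttggggcaccac
Rrp9 (fell, chr9:106485385-106485414, plus): gtcctcttttgtATTAAAgcctcctatttt
Emg1 (fell, chr6:124704381-124704410, minus): ttttcctataaagagTTTTATttcgttttt
In Dkc1 and Mphosph10 the element and the signal share bases, whereas Brix1, Bop1 and Rrp9 hold the signal alone in these windows. Brix1 rose without the element and Emg1 fell with it.

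Apart from the 60 members, 107 other ribosome biogenesis genes gave 8 genes higher and 2 lower in cKO at polyA GV, 22 and 11 after culture, 19 and 7 at polyA MII, none in RiboMinus GV, and 3 and 8 in RiboMinus MII. With library totals they gave 13 and 0, 34 and 5, 26 and 6, none, and 4 and 7. From GV to MII in polyA libraries 16 rose and 50 fell in controls, and 15 rose and 59 fell in cKO, or 8 and 70 and 8 and 78 with library totals. Over all genes, polyA GV had 3.47% higher and 3.91% lower, GV3h 12.5% and 12.7%, polyA MII 11.9% and 6.99%, and RiboMinus MII 3.61% and 3.69%. For the stage changes they were 16.8% rising and 25.7% falling in controls, and 18.1% and 26.6% in cKO. Of the selectivity factor SL1, which brings RNA polymerase I to its promoter, Taf1c was at 4.35 and 1.65 CPM in GV controls and 39.1 and 16.1 CPM in cKO females (3.21 ± 0.81, adjusted p 0.0264). Its partner Taf1a was lower (-0.59 ± 0.16, adjusted p 0.0353), a call lost with library totals. The polymerase I initiation factor Rrn3 was lower in cKO at GV3h (-0.84 ± 0.16, adjusted p 0.00125). In RiboMinus MII the genes of the 5S particle went opposite ways: Rrs1 was at 0.616 CPM in the control and 22.1 and 21.9 CPM in cKO females (5.15 ± 0.56, adjusted p 0.0127), and Rpf2 at 47.4 CPM against 6.29 and 8.93 CPM (-2.64 ± 0.37, adjusted p 0.0134). Ddx49 was higher at polyA MII (1.4 ± 0.25, adjusted p 0.00159) and Rrp7a lower (-1.52 ± 0.32, adjusted p 0.00493). As among the 60 members, some partners within 1 complex were called in opposite directions. These genes were named for the largest called differences in each direction, and how often partners went the same way is not given here.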

How the data were processed

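The gene files of 86 of the 108 libraries were used, and the 22 rRNA libraries were not used here. They hold raw counts per Ensembl gene, deposited by the authors without normalization, 1 oocyte per file. Per the labels' protocols, polyA RNA was caught on oligo(dT) beads from lysed oocytes and made into Nextera libraries, and RiboMinus libraries were made with the Ovation Solo kit. The submitters' processing notes name cutadapt 2.5, FastQC 0.11.8, STAR 2.7.2a, SAMtools 1.9, HTSeq 0.9.1, R 3.5.1, DESeq2 1.24.0 and the build mm10. The annotation release and strand setting are not given in the sources used here: 20 members overlap exons of a gene on the opposite strand and 4 a gene on the same strand, so their counts are uncertain. Per the labels, a spike-in mix was added to each oocyte, and the gene files have 0 ERCC lines. Symbols came from a supplied table (55394 of 55573 IDs), and coordinates and transcripts from GENCODE vM21. Reads outside genes (5.85% to 14.2%) and ambiguous reads (2.07% to 3.19%) were left out.

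Counts were summed per female and tested with edgeR 4.0.16 (filterByExpr, TMM, quasi-likelihood F tests, two-sided) in R 4.3.3, with Benjamini-Hochberg adjustment over 19242 genes in the polyA fit (6 groups), 25425 in the RiboMinus fit (4 groups) and 24777 in the joint fit (10 groups). Oocyte CPM and female CPM were scaled separately. Tables and figures used Python 3.11.15, pandas 2.3.3, numpy 2.4.6 and matplotlib 3.10.9, and alternatives used DESeq2 1.42.0 and limma 3.58.1. The scripts were tested on simulated data. No 2 libraries were near copies of each other. The members and the longer list were chosen with earlier results of these data known. Values per female are given for up to 4 called members per direction and contrast with an average log2 CPM of at least 3, for members called in at least 4 of 5 genotype contrasts and for the highest of each role. Up to 2 other genes per direction are named. Further members were named after their values were seen. Without labels on separate litters, p-values measure the spread between these females.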

Additional observations from a re-analysis of the deposited data

Results flagged for a closer look

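In RiboMinus GV cKO oocytes the 60 members summed to 7565 CPM in oocyte 3 of female V1126, with the next oocyte at 6391 CPM and the lowest at 5657 CPM, a gap wide enough to set that oocyte apart. The large subunit factors summed to 1776 CPM in oocyte 1 of female V1167 among RiboMinus MII cKO oocytes, with the next at 2038 CPM. Mdn1 was at 0.868 CPM (5 counts) in oocyte 1 of control female V896 at polyA MII, and at 0.175 CPM or less in the others. These are 3 of 54 such tests, and chance alone flags about 1 in 20. Differences between genotypes in the change from GV to MII in polyA libraries were flagged for Imp3 (1.81), Emg1 (1.31) and Utp4 (0.94). The change from GV to MII differed between polyA and RiboMinus libraries for 20 members in controls and 24 in cKO.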

How the results depend on the processing

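No paired analysis was possible because the groups compared share no female. Of 594 alternative values of 47 named member differences, 527 kept direction and side of the threshold, 67 lost the call and none reversed. Of the 47, 15 lost the call without at least 1 female. Counts of members called moved by over 1.5 times as follows, and the cause was not tested. The shares of all genes in the same fits are given above for some of them only. With oocytes as replicates, which are not independent, they were 29 at polyA GV (from 7), 33 at polyA MII (19), 1 for cKO from GV to GV3h (0), 14 for the polyA interaction (3), 18 at RiboMinus GV (0), 22 at RiboMinus MII (9), 22 and 18 for the RiboMinus control and cKO stage changes (0 and 3), 14 for the RiboMinus interaction (0), and 34 and 37 for the library type differences in controls and cKO (20 and 24). In the same order DESeq2 gave 12 at polyA GV, 5 for the polyA interaction, 6 and 17 in the RiboMinus genotype contrasts, 5 and 9 in the RiboMinus stage contrasts and 5 for their interaction. No filter gave 11, 5, 8, 18, 7, 8 and 3. Voom gave 15 at polyA GV, 6 and 18, 8 and 19, and 2 for the RiboMinus interaction. With only the groups compared in the fit the counts were 0 at polyA GV, 12 at polyA MII, 0 for the polyA interaction, 26 for the RiboMinus control stage change and 0 for the cKO one. Library totals as scaling gave 1 for the RiboMinus cKO stage change. Without oocyte 3 of female V1126 the counts were 5 at RiboMinus GV and 6 for the RiboMinus cKO stage change.

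Leaving out 1 female at a time gave 0 to 8 calls at polyA GV, 14 to 22 at GV3h, 12 to 18 at polyA MII, 24 to 31 and 32 to 34 for the polyA stage changes in controls and cKO, 0 to 6 for the polyA interaction, 0 to 4 at RiboMinus GV, 10 to 16 at RiboMinus MII and 0 to 12 for the RiboMinus cKO stage change. Of the calls with all females, 14 of 22 were kept at GV3h without control V951 or cKO V993, and 11 of 19 at MII without control V853 or cKO V897. This was not run for the library type differences. Under library totals the median over all genes was 0.27 (0.08 with TMM) for polyA GV, 0.29 (0.07) for GV3h, 0.45 (0.25) for RiboMinus MII, and -0.69 (-0.26) and -0.86 (-0.33) for the polyA stage changes. Groups of 2 or 3 females, and 1 control female in RiboMinus MII, limit every test. Low counts limit Mdn1 and Nop2 at polyA MII.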
